A study of Mus musculus with 12 samples.

Results

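The 7 genes studied belong to the intermediate filament family: the simple epithelial keratins Krt8, Krt18, Krt19 and Krt7, the mesenchymal filament gene Vim and the nuclear lamin genes Lmna and Lmnb1. They were followed in mouse embryonic stem cells carrying a hairpin against the long intergenic noncoding RNA TUNA. They were taken by name from a deposited table of 37477 rows, and all 7 members were found there. CCE cells, an embryonic stem cell line grown in serum medium with LIF, received a short hairpin RNA from a lentivirus of the pLKO.1-puro type and were kept in puromycin. Total RNA was taken from cells with the TUNA hairpin at day 2, day 4 and day 6, and from cells with a control hairpin at day 2 only, with 3 libraries in each of the 4 groups. All groups thus carried the virus and the drug, and day 4 and day 6 differ from the control in days of culture as well as in the hairpin. The labels name neither a separate culture for each replicate nor more than 1 hairpin, and a p-value here therefore reflects library-to-library spread that could be technical.

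Intermediate filaments are built from coiled-coil proteins. Keratins assemble only as pairs of a type II chain, such as Krt8 or Krt7, with a type I chain, such as Krt18 or Krt19. Krt8 and Krt18 are the first keratins of the mouse embryo and mark trophectoderm and other simple epithelia, while vimentin is the filament of mesenchymal and many cultured cells. Lamins line the inside of the nuclear envelope, and embryonic stem cells are known for abundant B-type lamins and little A-type lamin, the product of Lmna, which accumulates as cells differentiate.

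Values are normalized counts, obtained by raising the authors' log2 values back to the linear scale. The deposited log2 values stop at 0, so a row listed at 0 had 1 normalized count or less. Libraries held 3522126 to 5652412 recovered reads, of which 936421 to 2024737 lay outside 3 dominant rows (Rnu3a, Tex14 and LOC100503663). One read was worth 0.651 to 1.42 normalized counts. The row of the targeted RNA, 2810011L19Rik (an older symbol of Tunar), held 0 in each of the 12 libraries, and the knockdown is therefore not checked here. The 6 embryonic stem cell markers examined (Pou5f1, Sox2, Nanog, Zfp42, Esrrb and Dppa5a) summed per library to between 2263 and 2367 normalized counts at day 2, between 2003 and 2247 at day 4 and between 1549 and 1947 at day 6. The control range was 2518 to 2774. By the limma test used below, 3 of the 6 were lower at day 6 and 0 higher, beside 3.15% of all rows lower. These were Nanog (log2 change -0.96, adjusted p 0.00188), Sox2 (-0.55, 0.0134) and Zfp42 (-0.65, 0.0247). At day 4 Pou5f1 (-0.57, 0.0113) and Zfp42 (-0.76, 0.00528) were lower, beside 7.76% of all rows.

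Krt8 and Krt18 lie next to each other on mouse chromosome 15 with no annotated gene between them, on opposite strands. The start regions of Krt8, Krt18 and Vim are shown because these 3 genes were high at day 6. Krt19 was also high, and no window was found for it. Each covers 250 bases before the annotated start and 30 after it, 5′ to 3′ on the gene's strand, from RefSeq on GRCm38.p6. Krt8 is at chr15:102004313-102004592 (minus strand), Krt18 at chr15:102027966-102028245 (plus strand) and Vim at chr2:13574061-13574340 (plus strand).
Krt8: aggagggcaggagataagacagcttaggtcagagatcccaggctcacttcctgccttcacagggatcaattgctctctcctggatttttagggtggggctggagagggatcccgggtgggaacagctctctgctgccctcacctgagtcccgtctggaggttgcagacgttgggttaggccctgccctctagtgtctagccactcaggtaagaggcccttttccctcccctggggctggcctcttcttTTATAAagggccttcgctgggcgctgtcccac
Krt18: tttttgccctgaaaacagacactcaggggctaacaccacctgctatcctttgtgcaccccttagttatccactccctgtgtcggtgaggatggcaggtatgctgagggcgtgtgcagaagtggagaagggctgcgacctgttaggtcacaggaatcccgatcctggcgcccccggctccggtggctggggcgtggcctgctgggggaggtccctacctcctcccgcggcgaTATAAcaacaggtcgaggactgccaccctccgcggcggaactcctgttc
Vim: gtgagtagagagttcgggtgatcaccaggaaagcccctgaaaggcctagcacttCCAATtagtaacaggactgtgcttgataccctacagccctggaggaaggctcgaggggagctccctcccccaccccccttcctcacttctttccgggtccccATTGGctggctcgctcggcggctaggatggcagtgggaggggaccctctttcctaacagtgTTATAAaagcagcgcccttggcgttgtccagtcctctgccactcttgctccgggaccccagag

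Capitals mark matches, on either strand, to the motifs searched. These were TATAA, the core of the TATA box, and CCAAT. The GC box was searched as GGGCGG. An AP-1 site was taken as TGANTCA. The TEAD site was taken as GGAATG. Each of these 3 windows held TATAA, from base -2 in Krt8, from base -19 in Krt18 and from base -33 in Vim, with the annotated start as 0. In Krt8 and Vim the capitals hold a pair of overlapping matches, 1 on each strand. Of all 32851 windows of this length in the table, 24.0% held TATAA. Vim also held CCAAT at bases -196 and -94, a motif found in 36.1% of windows. None of the 3 windows held the GC box, the AP-1 site or the TEAD site, found in 34.7%, 7.46% and 13.9% of all windows. The Krt8 matches span the annotated start. Windows were found for 5 of the 7 members, and those of Krt7 and Lmna held no TATAA. The 3 windows shown were picked on day 6 values, so they are not a sample to set against the 24.0%. A match is a run of letters and not evidence that a factor binds there.

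The 3 tested keratins among the members, Krt8, Krt18 and Krt19, all rose at day 6 against the control. Krt18, the type I partner of Krt8, had 21.3, 20.4 and 27.0 normalized counts in the 3 TUNA hairpin libraries of day 2, 35.7, 22.8 and 20.8 at day 4, and 151, 153 and 102 at day 6, against 11.2, 17.4 and 23.0 in the control. Every day 6 library stood above every other library, while the other 3 groups overlapped. Krt18 rose at day 6 by 2.93 ± 0.28 (log2 change ± SE, adjusted p 6.43e-06 by limma with Benjamini-Hochberg adjustment over 8739 rows). It was also above day 4 by 2.33 ± 0.28 (adjusted p 6.25e-05) and above day 2 by 2.50 ± 0.28 (4.5e-05). The changes against the control at day 2, 0.43 ± 0.28, and at day 4, 0.60 ± 0.28, did not pass (adjusted p 0.572 and 0.151).

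Krt8, the type II partner, had 1.68, 3.37 and 3.39 normalized counts at day 2, 2.93, 10.3 and 6.11 at day 4, and 32.9, 39.3 and 27.5 at day 6, against 9.49, 7.44 and 7.72 in the control. The 3 day 6 libraries stood above all others. Those of day 2 stood below every control library, at 1.5 to 2.97 recovered reads against 7 to 11 in the control. Against the control at day 6 Krt8 rose by 1.89 ± 0.42 (adjusted p 0.0111). It stood higher by 2.32 ± 0.42 against day 4 (0.00304) and by 3.19 ± 0.42 against day 2 (0.000253). The call against the control was lost without day 6 replicate 1 (adjusted p 0.0554) or day 6 replicate 2 (0.0613). At day 2 the change of -1.30 ± 0.42 did not pass over all rows (unadjusted p 0.00654, adjusted p 0.194), and at day 4 it was -0.43 ± 0.42. Krt8 passed the filter on low values, 10 normalized counts in 3 libraries, through the 3 day 6 libraries and 1 of day 4. Its calls are therefore descriptive only.

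Krt19, a type I keratin that can replace Krt18 as a partner of Krt8, differed from the control earlier. It had 12.3, 3.41 and 5.69 normalized counts at day 2, 19.5, 35.3 and 15.9 at day 4, and 35.9, 34.3 and 23.6 at day 6, against 4.31, 4.60 and a value listed at 0 in the control. All 6 libraries of day 4 and day 6 exceeded every library of day 2 and of the control, and days 4 and 6 overlapped. Krt19 rose by 2.91 ± 0.57 at day 4 (adjusted p 0.00251) and by 3.36 ± 0.57 at day 6 (adjusted p 0.00176). Without control replicate 3, the library listed at 0, these changes were 2.09 and 2.54, and with a pseudocount of 5 they were 1.84 and 2.23, each still called. Day 6 exceeded day 2 by 2.12 ± 0.57 (adjusted p 0.0434), a call lost without any 1 of 5 libraries, day 2 replicates 2 and 3 and day 6 replicates 1, 2 and 3 (0.0532 to 0.17). It was also lost with no filter, a filter of 30 normalized counts, a pseudocount of 0.5 or no variance trend (0.0657 to 0.0904). Day 4 against day 2 (1.67 ± 0.57, adjusted p 0.0853), day 6 against day 4 (0.45 ± 0.57, 0.706) and day 2 against the control (1.24 ± 0.57, 0.398) did not pass. Krt19 reached 10 normalized counts in 7 libraries, 3 of day 6 and 4 others, all with the TUNA hairpin. Its calls against the control are therefore descriptive only.

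Krt7, a type II keratin of simple epithelia, was near the floor throughout. It had 2.24 and 1.14 normalized counts in day 2 replicates 1 and 2, which is 2 reads and 1 read, and 1.12 in day 4 replicate 3. The other 9 libraries, all of day 6 and of the control among them, were listed at 0. It did not pass the filter and was not tested. A fall or a small change in Krt7 was not detectable at this depth. In the day 6 libraries 1 read was worth 0.75 to 0.95 normalized counts, so a single read there is listed at 0.

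**Figure D1:**
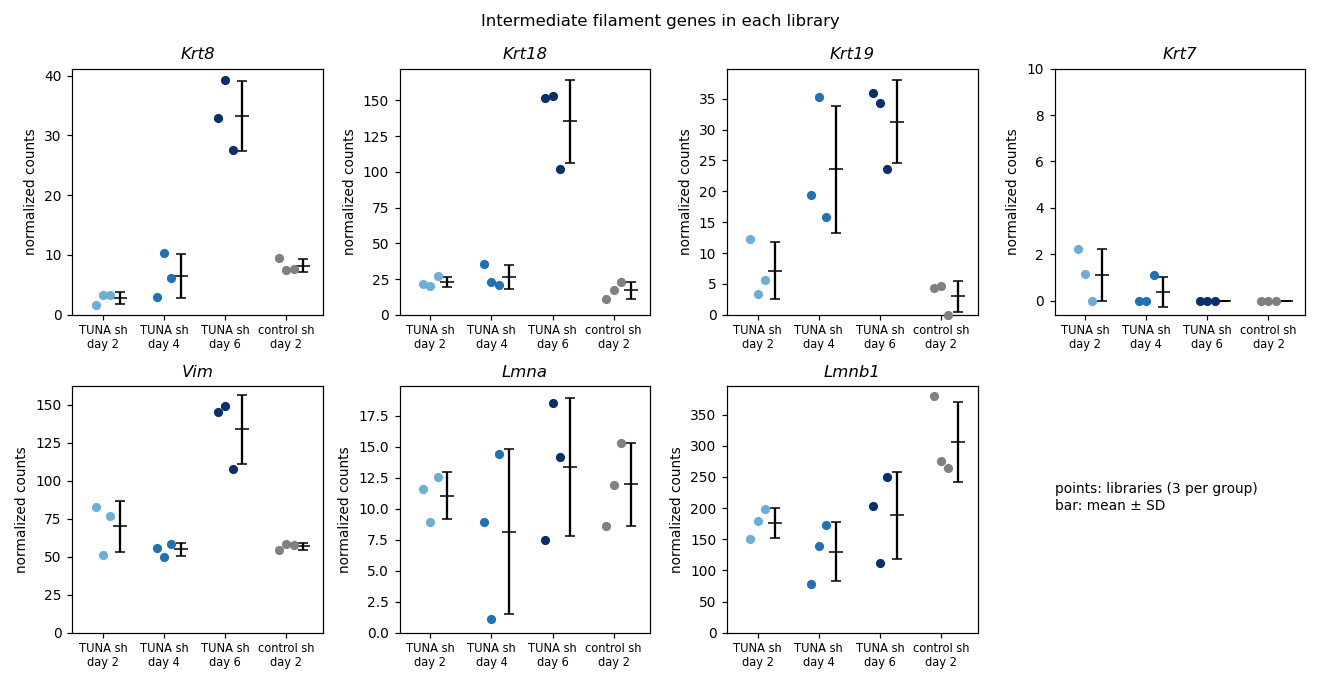
Normalized counts (vertical axes, linear, each with its own range) of the 7 genes in every library, with TUNA hairpin (TUNA sh) groups of day 2, 4 and 6 and the control hairpin (control sh) of day 2 along the horizontal axes. Points are libraries, 3 per group, and bars give the mean ± SD. Krt18 stands at 102 to 153 at day 6 and at 35.7 or below in every other library, while Lmnb1 is highest in the control.

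The balance of the keratin pair was followed within libraries, where library scaling largely cancels. On a log2 scale, Krt8 relative to Krt18 averaged -2.67 ± 0.38 at day 2, -1.97 ± 1.11 at day 4 and -1.98 ± 0.16 at day 6, against -0.94 ± 0.64 in the control (SD, n = 3 each). The ratio was lower than in any control library in all 3 libraries of day 2 and all 3 of day 6, and day 4 overlapped the control. The differences from the control were -1.74, -1.04 and -1.05 at days 2, 4 and 6, with exact permutation p of 0.1, 0.3 and 0.1 (two-sided; 0.3, 0.45 and 0.3 adjusted over the 6 ratio tests). With 3 libraries against 3, 0.1 is the smallest p possible, so these cannot pass 0.05. Per kilobase of the principal transcript, Krt18 had 94.2 ± 20.3 normalized counts at day 6 against 11.99 ± 4.12 in the control, and Krt8 had 17.0 ± 3.02 against 4.20 ± 0.568. On this scale Krt18 exceeded Krt8 in every group, and Krt19 reached 19.8 ± 4.27 at day 6 against 1.89 ± 1.64 in the control. At day 6 Krt19 and Krt8 did not differ beyond their spread.

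**Figure D2:**
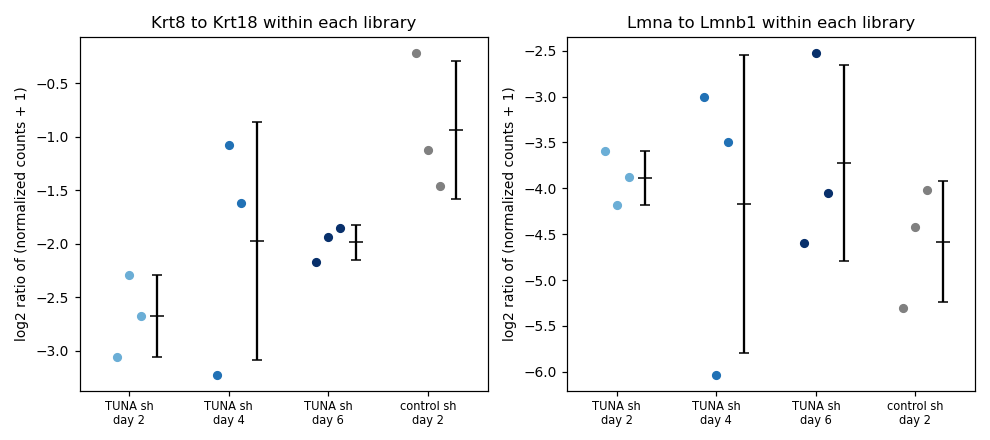
Log2 ratio of (normalized counts + 1) within each library (vertical axes) for Krt8 to Krt18 on the left and Lmna to Lmnb1 on the right, by group along the horizontal axes. Points are libraries and bars give the mean ± SD (n = 3). Krt8 to Krt18 lies at -2.17 to -1.85 at day 6 against -1.46 to -0.22 in the control, while Lmna to Lmnb1 overlaps between groups.

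Vimentin rose late. Vim had 82.5, 50.9 and 76.9 normalized counts at day 2, 55.8, 50.1 and 58.6 at day 4, and 145, 149 and 108 at day 6, against 54.1, 58.5 and 57.8 in the control. The day 6 libraries exceeded all others, and the day 2 libraries lay on both sides of the control range. Vim rose at day 6 by 1.21 ± 0.20 against the control (adjusted p 0.00115), by 1.26 ± 0.20 against day 4 (0.000822) and by 0.94 ± 0.20 against day 2 (0.011). The last call was lost without day 2 replicate 2 (adjusted p 0.0617) or day 6 replicate 1 (0.0615). At day 2 the change was 0.27 ± 0.20 (adjusted p 0.632) and at day 4 it was -0.05 ± 0.20 (0.887).

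Of the lamins, Lmnb1 fell at day 4 and Lmna passed the test on no day. Lmnb1, which encodes the B-type lamin B1, had 151, 180 and 199 normalized counts at day 2, 78.5, 139 and 172 at day 4, and 203, 112 and 250.1 at day 6, against 380.2, 276 and 264 in the control. All 9 TUNA hairpin libraries stood below all 3 control libraries, and the hairpin days overlapped each other. Lmnb1 fell at day 4 by 1.29 on the log2 scale (SE 0.28, adjusted p 0.00516). At day 2 the change of -0.78 ± 0.28 did not pass (adjusted p 0.249), though it did when the day 2 and control libraries were fitted alone (0.0182). At day 6 it was -0.76 ± 0.28 (adjusted p 0.13), and it passed without day 6 replicate 3 (0.0454).

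Lmna, the A-type lamin gene, had 11.6, 8.97 and 12.6 normalized counts at day 2, 8.92, 1.14 and 14.4 at day 4, and 7.48, 18.5 and 14.2 at day 6, against 8.63, 11.96 and 15.3 in the control. All groups overlapped, and day 4 replicate 2 held a single read. The change was -0.09 ± 0.56 at day 2, -0.88 ± 0.56 at day 4 and 0.10 ± 0.56 at day 6 (adjusted p 0.977, 0.312 and 0.95). Relative to Lmnb1, the log2 ratio of Lmna averaged -3.88 ± 0.29, -4.17 ± 1.63 and -3.72 ± 1.07 at days 2, 4 and 6 against -4.58 ± 0.66 in the control (SD, n = 3 each). The exact permutation p was 0.2, 0.7 and 0.5, and all 3 days overlapped the control. Per kilobase, Lmnb1 was the highest of the 7 in the control at 108 ± 22.5, with Vim at 25.9 ± 1.07 and Krt18 at 11.99 ± 4.12. Krt8 at 4.20 ± 0.568 and Lmna at 3.79 ± 1.06 did not differ beyond their spread, nor did Krt19 at 1.89 ± 1.64 from Lmna. At day 6 Krt18, at 94.2 ± 20.3, did not stand apart from Lmnb1 at 66.3 ± 24.7 or Lmnb1 from Vim at 61.1 ± 10.4.

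**Figure D3:**
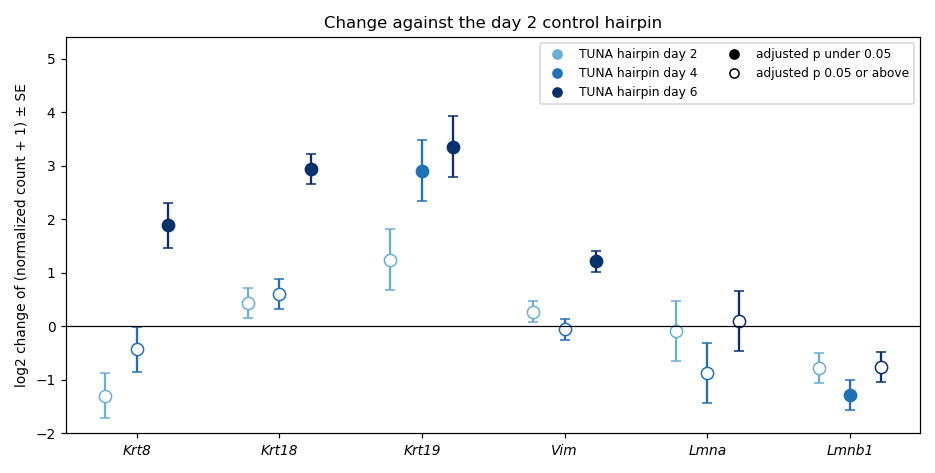
Log2 change of (normalized count + 1) against the day 2 control (vertical axis) of the 6 tested genes (horizontal axis), with standard errors as bars and 1 shade for each TUNA hairpin day. Filled points passed an adjusted p of 0.05. At day 6 Krt8, Krt18, Krt19 and Vim are filled above 0, Krt19 already at day 4, and Lmnb1 is filled below 0 at day 4 only.

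In counts, 6 of the 7 members were tested. At day 6 against the control 4 were higher and 0 lower, where 3.07% and 3.15% of all 8739 rows were called in these directions. At day 4 there were 1 higher, where the share over all rows was 6.99%, and 1 lower (7.76%). At day 2 limma called 0 of the 6 (0.961% of all rows in either direction), and 3 had an unadjusted p under 0.05, namely Krt8, Krt19 and Lmnb1. The 0.961% is for adjusted calls. No share over all rows stands beside the unadjusted count, so it is not read as a result. The 2 members whose day 2 libraries did not overlap the control, Krt8 and Lmnb1, were lower, as were 10.3% of all rows. Libraries did not overlap for Krt19 (above, 15.5% of rows) and Lmnb1 (below, 16.9%) at day 4. At day 6 they did not for the 4 members called (above, 11.2%) and for Lmnb1 (below, 12.8%). Between hairpin days, 3 members were higher at day 6 than at day 4 (2.64% of all rows) and 4 higher than at day 2 (1.96%). Limma called 0 at day 4 against day 2 (7.66% of all rows), with 1 member, Krt19, at an unadjusted p under 0.05. That unadjusted count too stands without a share over all rows. Non-overlapping and higher were 3 members at day 6 against day 4 (11.5% of rows), 4 at day 6 against day 2 (11.2%) and 1 at day 4 against day 2 (14.2%). The median log2 change of the 6 tested members was 0.09, -0.24 and 1.55 at days 2, 4 and 6 against the control, with 0.01, -0.01 and -0.01 over all rows. Krt8 entered through day 6 and Krt19 through hairpin libraries alone, and the members were chosen with earlier results of these data known. These counts therefore only describe the members.

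Other genes bear on how some members were counted. Processed pseudogene copies of keratin genes exist in the mouse, and the row of 1 annotated copy, Krt8-ps (listed as Gm5604), was at 0 in all 12 libraries. Of the 12 libraries, Krt8 had a whole number of reads (within 0.02) in 5, Krt18 in 4, Lmna in 4, Vim in 0 and Lmnb1 in 0. Krt19 had one in 6 of the 11 libraries above 0, and Krt7 in 2 of 3. Over all rows, 43.3% to 56.7% of the values below 20 reads were whole, so fractions were not particular to the members. Vim and Lmnb1 had 43.9 reads or more in every library. The labels do not say how reads were weighted. A noncoding gene, Gm36026, overlaps Krt8 on the other strand, and the labels do not say that counting used strand. The levels of these members are uncertain to that extent.

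For the related gene lists, the shares of all rows called higher were 0.412% at day 2, 6.99% at day 4 and 3.07% at day 6 against the control, and those called lower at days 4 and 6 were 7.76% and 3.15%. These lists were chosen with earlier results of these data known, so their counts are descriptive only. Few other genes of the filament family were tested. Of 46 other keratin rows, 36 were listed at 0 in every library, and only Krt42, a type I keratin, was tested. Krt42 fell to 2.52 ± 2.84 normalized counts at day 4 and 2.67 ± 0.316 at day 6, against 15.2 ± 1.37 in the control (SD, n = 3; log2 changes -2.58 ± 0.56 and -2.14 ± 0.56, adjusted p 0.00513 and 0.0279). The day 6 call was lost whichever of the 6 libraries was omitted (adjusted p up to 0.0945) or with a pseudocount of 0.5 (0.059), and at day 2 Krt42 stood at 15.4 ± 4.27. So at day 6 Krt42 was lower while Krt8, Krt18 and Krt19 were higher.

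Of 13 other intermediate filament genes 5 were tested, and at day 6 2 were higher and 0 lower (median log2 change 0.77), beside 3.07% and 3.15% of all rows. Nes, nestin, the filament protein of neural progenitors, had 30.8, 33.5 and 20.9 normalized counts at day 6, against 7.77 at most in the control (28.4 ± 6.66 against 4.64 ± 4.10; 2.86 ± 0.66, adjusted p 0.013). Nes passed the filter only through the 3 day 6 libraries, so its call and its place in the count are descriptive only. Ina, alpha-internexin, a neuronal filament protein, stood at 21.3 ± 5.14 against 6.44 ± 3.18 (1.64 ± 0.40, adjusted p 0.0171), a call lost when control replicate 1, control replicate 3, day 6 replicate 1 or day 6 replicate 3 was omitted (highest adjusted p 0.0807). Lmnb2, the other B-type lamin gene, fell at day 4 to 57.7 ± 10.9, against 107 ± 14.2 in the control (-0.89 ± 0.20, adjusted p 0.00613), the 1 lower call of the list on that day. At day 6 Lmnb2 had 76.7 ± 19.3 and did not pass (adjusted p 0.165).

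Around the lamins few genes moved. Of 9 tested envelope partners, Sun1, which links lamins to the cytoskeleton, fell at day 6 to 70.0 ± 19.2, against 136 ± 4.40 in the control (-0.99 ± 0.19, adjusted p 0.00417). It also fell at day 4 (-0.59 ± 0.19, adjusted p 0.0457, lost with any 1 of 5 libraries omitted, controls 1 to 3 and day 4 replicates 2 and 3, highest 0.121). That call was also lost with either other scaling, no filter or no variance trend (0.0518 to 0.118). Of 4 tested lamin processing enzymes, Zmpste24, the protease that matures lamin A, fell at day 4 to 16.6 ± 4.33, against 31.0 ± 1.85 (-0.89 ± 0.27, adjusted p 0.0319). That call too was lost with any 1 of 5 libraries omitted, again controls 1 to 3 and day 4 replicates 2 and 3 (highest 0.1), and with upper quartile scaling (0.065) or no filter (0.0551). No other member of either list passed on any day against the control by this limma fit.

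Desmosomes and plakins anchor keratin and vimentin filaments, and 4 of the 12 tested genes of this kind were higher at day 6, with 0 lower (median log2 change 0.25), beside 3.07% of all rows higher. Perp, a desmosomal membrane protein that is also a p53 target, had 45.7 ± 5.24, 74.1 ± 8.75 and 116 ± 8.30 normalized counts at days 2, 4 and 6, against 21.98 ± 8.22 in the control. It rose on each day (1.08 ± 0.22, 1.76 ± 0.22 and 2.40 ± 0.22), although the day 2 call (adjusted p 0.0292) was lost without any 1 of 5 libraries, control replicates 2 and 3 and day 2 replicates 1 to 3 (highest 0.137), and with no variance trend (0.0788). Dsc2, the desmosomal cadherin desmocollin 2, had 24.3 ± 2.52 at day 4 and 20.3 ± 2.52 at day 6, against 5.04 ± 2.99 in the control (2.21 ± 0.40 and 1.96 ± 0.40, adjusted p 0.00124 and 0.00577).

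Plec, plectin, a cross-linker that binds vimentin and keratins, stood at 50.2 ± 14.5 at day 6, against 18.1 ± 10.9 in the control (1.52 ± 0.36, adjusted p 0.0148). Its call was lost without control replicate 1 or 3 or day 6 replicate 3 (highest adjusted p 0.075). Dst, dystonin, a large plakin, rose at day 6 by 0.71 ± 0.18 (adjusted p 0.0214), a call lost when control replicate 1, control replicate 3, day 6 replicate 1 or day 6 replicate 3 was omitted (highest 0.103), with the 2 groups alone (0.0723) or with no variance trend (0.0806). Dsp, desmoplakin, the plakin that ties keratins to the desmosome, had 15.0 ± 5.74 at day 4 and 15.1 ± 1.45 at day 6, against 5.37 ± 3.21 in the control. It passed at day 4 (1.42 ± 0.46, adjusted p 0.0476, lost on omitting control replicate 1, control replicate 3, day 4 replicate 2 or day 4 replicate 3, highest 0.21) and not at day 6 (1.498 ± 0.46, 0.0655). The day 4 call of Dsp was also lost with no filter, a pseudocount of 0.5 or no variance trend (0.0504 to 0.0831). Dsp passed the filter only through the 3 day 6 libraries and 2 of day 4. Its call and its place in the day 4 count are therefore descriptive only. At day 4 the list had 3 higher and 0 lower (6.99% of all rows higher), and at day 2 1 higher and 0 lower (0.412% higher).

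**Figure D4:**
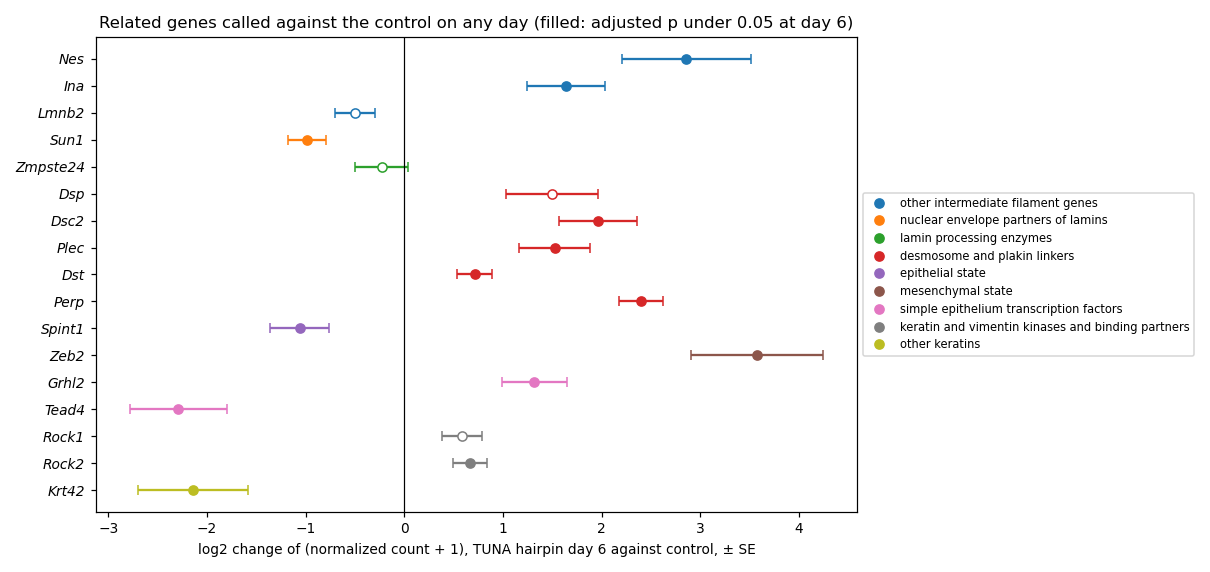
Log2 change of (normalized count + 1) at day 6 against the control (horizontal axis, bars are standard errors) for the 17 genes of the related lists called on any day, colored by list. Filled points passed an adjusted p of 0.05 at day 6. Perp, Dsc2, Plec and Dst lie above 0 with Nes, Ina, Zeb2 and Grhl2, while Sun1, Spint1, Tead4 and Krt42 lie below 0.

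Genes of epithelial or mesenchymal state showed no common direction. Of 6 tested epithelial genes, Spint1, a serine protease inhibitor, alone passed against the control. It fell at day 6 to 12.4 ± 3.62, against 26.4 ± 1.31 in the control (-1.06 ± 0.30, adjusted p 0.0426). That call was lost without any 1 of 5 libraries, control replicates 1 to 3 and day 6 replicates 2 and 3 (highest 0.121), and with upper quartile scaling (0.0618) or no filter (0.0716). Of 4 tested mesenchymal genes, Zeb2, a repressor of epithelial genes, had 10.2 ± 1.36 at day 4 and 15.9 ± 2.13 at day 6, where the highest of the control libraries had 1.84 and the other 2 were listed at 0 (adjusted p 0.00635 and 0.00349). Zeb2 passed the filter through the 3 day 6 libraries and 1 of day 4, so its calls are descriptive only.

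Among 5 tested transcription factors of simple epithelia, Grhl2, a grainyhead factor of epithelial genes, had 25.3 ± 0.503 at day 6, against 9.65 ± 1.76 in the control (1.32 ± 0.33, adjusted p 0.0201; up to 0.0808 on omitting any 1 of control replicates 2 and 3 and day 6 replicates 1 and 2). Tead4, a trophectoderm factor, fell to 5.81 ± 4.54 at day 4 and 4.37 ± 2.79 at day 6, against 23.3 ± 4.74 in the control (-2.01 ± 0.49 and -2.29 ± 0.49, adjusted p 0.0102 and 0.00848; 0.0541 at day 4 without day 4 replicate 2). Of 7 tested kinases and binding partners, Rock1, a kinase that phosphorylates vimentin, rose at day 4 (1753 ± 459 against 897 ± 213 in the control; 0.96 ± 0.20, adjusted p 0.00438). Its relative Rock2 rose at day 4 (0.55 ± 0.17, adjusted p 0.0397) and day 6 (0.66 ± 0.17, 0.0263). These Rock2 calls were lost without any 1 of 4 libraries at day 4, control replicates 1 to 3 and day 4 replicate 2 (highest 0.184), and any 1 of 5 at day 6, the controls and day 6 replicates 1 and 3 (0.0898). The day 4 call was also lost with the 2 groups alone, no filter or no variance trend (0.0517 to 0.083), and the day 6 call with no variance trend (0.0714).

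Markers of other cells that carry these filaments were read beside them. Of 8 fibroblast and feeder markers, Col1a1, Col1a2, Col3a1, Dcn, Lum and Postn were listed at 0 in all 12 libraries, and the list summed to 1.68 to 5.09 normalized counts per library at day 6, against 5.18 to 8.28 in the control. The 6 trophoblast markers in the table summed to 5.25 to 14.2 at day 6, against 0 to 2.76 in the control, with Elf5, Gata3, Hand1 and Tpbpa at 0 in all day 6 libraries. Cdx2, a trophectoderm factor, had 3.90 to 6.64 in the day 6 libraries and was listed at 0 in the other 9, and Eomes had 0 to 7.58 at day 6 against 0 to 2.76 in the control. The 9 primitive endoderm markers summed to 12.8 to 18.7 at day 6, against 8.28 to 16.5 in the control, and to 27.2 to 40.4 at day 4, with Sox17, Afp and Ttr at 0 on both days. At day 4 Gata6 had 8.47 to 13.7 against 2.21 to 6.04 in the control, Pdgfra 12.2 to 19.4 against 3.45 to 10.98, and Gata4 1.22 to 3.42 where every control library was at 0. Dab2 overlapped, at 0 to 7.95 against 0 to 3.31. Of all tested rows, 15.5% had every day 4 library above every control library. Only 1 of the 9 markers passed the filter, and limma did not call it at day 4 against the control (log2 change 1.46). Sox7 and Foxa2, at 0 in the control, reached at most 3.42 and 1.30 at day 4 and 3.002 and 1.90 at day 6. Their part in the keratin values was not tested. In such bulk RNA, a higher level in all cells and a larger share of high cells cannot be told apart.

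By profile across the 12 libraries, the rows most like Krt18 were Tpm4, Tmsb4x and Tpm1, all genes of the actin cytoskeleton. Likeness was the root mean square difference of centred log2 values among 3259 rows averaging at least 50 normalized counts, and it was 0.52, 0.59 and 0.65 for these, with a median of 1.23 over all such rows. For Vim the closest were Zfp943, Chtf8 and 2900073G15Rik (0.28, 0.30 and 0.31, median 0.62). For Lmnb1 the closest was Ppil1, a cyclophilin of the spliceosome, at 0.13, followed by Gm5088 and Pa2g4 at 0.25 each (median 0.63). Ppil1 averaged 167, 126 and 163 normalized counts at days 2, 4 and 6, against 280.2 in the control. For Lmna Eif2s3x, 2410002F23Rik and Rpl7a were closest at 0.51, 0.51 and 0.58 (median 0.84).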

How the data were processed

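The authors deposited 1 table of log2 normalized counts for 37477 rows and 12 libraries, with BWA, DESeq and the build mm9 named without roles or versions, per the submitters' processing notes. Values were raised back to normalized counts, and those listed at 0 were taken as 0, so such means are lower bounds. Recovered reads come from the commonest low values, and of the values below 20 reads 43.3% to 56.7% came within 0.02 of a whole number. A count test was therefore not used. The 8739 rows that reached 10 normalized counts in 3 or more libraries were fitted as log2(value + 1) with limma 3.58.1 in R 4.3.3. The fit had 1 coefficient per group and a variance trend, with Benjamini-Hochberg adjustment within each of the 6 comparisons and a threshold of 0.05. This scale understates the changes of low genes. The fit was tested on simulated data. The members and gene lists were chosen with earlier results of these data known. Apart from the cell markers, the list genes named are those called against the control on any day. The rows most alike come from a fixed distance rule. GENCODE M21 (GRCm38) gave chromosomes, neighbours and transcript lengths, and mm9 coordinates were not used. Plots used matplotlib 3.10.9 under Python 3.11.15.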

Additional observations from a re-analysis of the deposited data

Results flagged for a closer look

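The change of 4 members differed between hairpin days by the limma contrast of the days themselves, with Benjamini-Hochberg adjustment. Krt8 stood 2.32 higher at day 6 than at day 4 and 3.19 higher than at day 2 on the log2 scale, in 3 of 3 day 6 libraries each time. Because Krt8 passed the filter through day 6, these 2 contrasts are descriptive only. Krt18 stood 2.33 and 2.50 higher in the same contrasts, and Vim 1.26 and 0.94 higher. Krt19 was 2.12 higher at day 6 than at day 2, in 3 of 3 libraries, and passed in no other contrast between hairpin days. Of the reads in the day 6 libraries, 60.4% to 69.3% fell in 3 dominant rows. The shares were 72.7% to 74.5% in day 2 libraries, 64.2% to 76.9% in day 4 libraries and 74.0% to 75.5% in control libraries, and the part of this in the values was not tested. Groups of 3 libraries are too small to single out a far library.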

How the results depend on the processing

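Alternatives were scaling by the trimmed mean of M values or upper quartile, no filter or one of 30 normalized counts, pseudocounts of 0.5 and 5, the 2 groups alone, no variance trend, a replicate block, and each library left out. The calls of Krt18 and Vim at day 6, of Krt19 at days 4 and 6, and of Lmnb1 at day 4 against the control held in all of them in which they were fitted. Krt8 dropped out at 30 normalized counts. Of 180 counts of called members, 173 kept their value within 1.5 times. Members lower at day 2 against the control numbered 1 with the 2 groups alone instead of 0. Members higher at day 4 against day 2 numbered 1 with a pseudocount of 5 or the 2 groups alone instead of 0. Members higher at day 6 against day 2 numbered 2 with the filter of 30 instead of 4, and 2 to 4 with 1 library left out (2 without day 2 replicate 2 or day 6 replicate 1). Members lower at day 6 against the control numbered 0 to 1 with 1 library left out.

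The sign turned only in member changes that were not called and in 1 ratio. With 1 library left out, Lmna ran from -0.284 to 0.0979 at day 2 against the control, from -0.160 to 0.443 at day 6 against the control, from -1.38 to 0.0490 at day 4 against day 2 and from -0.0746 to 0.528 at day 6 against day 2. Lmnb1 at day 6 against day 2 ran from -0.217 to 0.360, Krt18 at day 4 against day 2 from -0.0576 to 0.318, and Vim at day 4 against the control from -0.103 to 0.00874. Vim at day 4 was 0.0749 with upper quartile scaling, which moved the median of all rows to 0.12. Lmna at day 4 against day 2 was -0.79 with all libraries and turned without day 4 replicate 2. The difference of the Lmna to Lmnb1 ratio at day 4, 0.41 with all libraries, ran from -0.179 (without day 4 replicate 1) to 1.33. The cause was not tested.

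Omitting 1 library, the calls over all rows at day 6 ranged from 125 to 237 (higher; 268 with all) and from 157 to 319 (lower; 275). At day 4 the ranges were 362 to 572 (higher; 611) and 447 to 715 (lower; 678), and at day 2 9 to 24 (36) and 9 to 21 (48). Upper quartile scaling gave 905 higher and 454 lower at day 4. Replicate numbers did not pair the libraries: correlations of same-numbered deviations ran from -0.277 to 0.328, with 3 of 18 pairs over 0.1. The replicate block left the counts of called members as they were, with 4 higher at day 6, and ended the day 4 calls of Sun1 (adjusted p 0.0604), Dsp (0.0518) and Rock2 (0.059). Krt7 rests on the fewest reads, and Krt8, Krt19 and Lmna on fewer than Krt18, Vim and Lmnb1, which limits them.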
